A study of Schizosaccharomyces pombe with 32 samples.

Results

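The first minutes of the fission yeast response to hydrogen peroxide were described here from the arrays taken 10 and 15 min after the oxidant was added. Members were chosen by sample title: 4 of the 32 arrays of the series, namely 10 and 15 min in stressed cultures 1 and 2, set against the 2 arrays of the same cultures at 0 min. All came from Schizosaccharomyces pombe strain JB50, a homothallic h90 strain whose cells can mate with each other, grown in shake flasks in the rich medium YES. Peroxide was given at 0.5 mM to the stressed cultures, and the 0 min arrays carry the label of no peroxide. Arrays at 5 and 60 min of the same cultures, and 0 and 60 min arrays of 2 other, untreated cultures, were used for comparison. No untreated array used here falls at 10 or 15 min, so the effect of peroxide cannot be told apart from that of minutes passing in the flask. Flasks were not all at the same cell density when peroxide was added, and the labels leave unsaid which density belongs to which array. Each array gave 1 signal for 4972 probe sets on a linear scale of unknown calibration, with array medians from 1.57 to 1.78 over the 6 arrays compared.

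In fission yeast peroxide is sensed by a pair of routes. The mitogen-activated protein kinase Sty1 acts through the transcription factor Atf1 and its partner Pcr1 on a broad set of stress genes. The transcription factor Pap1, which gathers in the nucleus when it is oxidised, acts on antioxidant and drug efflux genes.

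In the pooled comparison of 10 and 15 min with 0 min, the transcripts with a known symbol that stood highest over their start were those of lsd90, pyp2, ctt1 and srx1, between 8.36-fold and 12.1-fold, and all 4 stressed arrays lay above both 0 min arrays for each of them. Those lowest relative to 0 min included fip1, str3 and ste11, at log2 changes from -1.73 to -1.43. Among the highest, lsd90 started at signals of 0.19 and 0.38 and pyp2 at 0.30 and 0.24, and the floor of the scale is unknown. With log2(signal + 0.1), lsd90 had a log2 change of 3.17, ctt1 3.04, srx1 3.01 and pyp2 2.95, so their order and size depended in part on these low starts. Whether these changes passed the test depended on how the cultures entered the fit. With 1 mean per time and no term for culture, limma called 0 of 4972 probe sets (0%) at an adjusted p under 0.05 (Benjamini-Hochberg), with a lowest adjusted p of 0.0674. At an unadjusted p under 0.05 there were 485, of which 257 were higher (5.17%) and 228 lower (4.59%). The 3 times in a culture come from the same flask, and with culture as a block (paired fit) limma called 192, of which 139 rose (2.8% of all probe sets) and 53 fell (1.07%). Below, "rose" and "fell" refer to the paired fit alone, and a transcript not called there is given by its values. Since both stressed times of a culture share a flask, the 4 arrays are 2 independent cultures. When 10 and 15 min were first averaged within each culture, the paired fit called 136 probe sets, 124 of them among the 192. Of the calls with 1 symbol, 34 of 52 risen and 15 of 34 fallen passed on these culture means, and the adjusted p on culture means is given below for each named call that did not.

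The 139 risen probe sets had a median log2 change of 1.25, from 0.66 to 4.84, and 100 of them were at least 2-fold higher. The 53 that fell had a median of -0.95, from -1.73 to -0.74, and 22 were at least 2-fold lower. For 129 of the 139 all 4 stressed arrays lay above both 0 min arrays, and for 50 of the 53 all lay below, which describes the calls and does not support them, since they were made on the same 6 arrays. Over all probe sets the same separation held for 488 upward (9.81%) and 613 downward (12.3%). In the untreated cultures the same probe sets had median changes at 60 min of 0.02 (risen) and -0.02 (fallen). A single gene symbol was known for 52 of the risen and 34 of the fallen probe sets, beside 2903 of all 4972. Every list member carries 1 symbol, while the shares set beside the lists below are those of all 4972 probe sets.

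One list held antioxidant genes and targets of Pap1, drug exporters among them. Of 27 such transcripts, 7 rose and 0 fell in the paired fit, beside 2.8% and 1.07% of all probe sets. Their median log2 change was 0.34 against -0.05 for all probe sets. The signal of srx1, the gene of sulfiredoxin, which repairs overoxidised peroxiredoxin, was 2.50 at 0 min and 23.6 and 20.9 at 10 and 15 min in culture 1. In culture 2 it was 1.94, then 15.2 and 15.2. Both cultures held close to a plateau by 10 min, and no stressed value came near a starting one. The pooled log2 change of srx1 was 3.06, with an SE of 0.26 without the block (adjusted p = 0.0674) and of 0.13 with it (adjusted p = 0.00238). Catalase, which breaks down peroxide, is encoded by ctt1. Its signal went from 1.81 to 17.7 and 18.3 in culture 1 and from 1.40 to 10.0 and 11.5 in culture 2, and its change of 3.12 ± 0.15 (SE, paired fit, adjusted p = 0.00238) was 3.31 in culture 1 and 2.93 in culture 2.

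A course that differed between the cultures was seen for caf5, which encodes a membrane exporter of drugs and caffeine. The caf5 signal was 0.671, 4.48 and 7.54 at 0, 10 and 15 min in culture 1 and 0.676, 2.65 and 3.76 in culture 2. It started level in both cultures and reached a higher signal in culture 1, where it was already at 5.53 by 5 min, above its 10 min value. Its pooled change was 2.67 ± 0.23 (SE, paired fit, adjusted p = 0.00766). The glutathione S-transferase gene gst2 rose by 1.87 ± 0.21 (adjusted p = 0.0156), from 3.72 to 10.2 and 18.5 in culture 1 and from 2.92 to 11.0 and 10.2 in culture 2. Smaller rises were those of bfr1, another exporter, at 0.98 (0.99 in culture 1 and 0.97 in culture 2), of zwf1, the gene of glucose-6-phosphate dehydrogenase, which feeds NADPH to the reductases, at 0.93 (0.89 and 0.97), and of gpx1, glutathione peroxidase, at 0.74 (0.70 and 0.79). The cultures differed little for these 3, and the gpx1 call was lost on culture means (adjusted p = 0.078).

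Much of the peroxide-reducing machinery was abundant at the start and was not called. The peroxiredoxin gene tpx1 had signals of 19.7, 23.1 and 26.5 in culture 1 and 21.1, 26.6 and 26.9 in culture 2, a change of 0.34 (adjusted p = 0.205 in the paired fit). All 4 stressed tpx1 values lay above both starting values. Thioredoxin reductase, trr1, had changes of 0.90 in culture 1 and 0.29 in culture 2. The cytosolic thioredoxin gene trx1 had a change of 0.11, the glutaredoxin gene grx1 0.05 and the superoxide dismutase gene sod1 0.00. Another transferase gene, gst3, had the largest change among the uncalled antioxidant genes, 1.14 with 1.60 in culture 1 and 0.68 in culture 2 (adjusted p = 0.0592 in the paired fit).

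**Figure D1:**
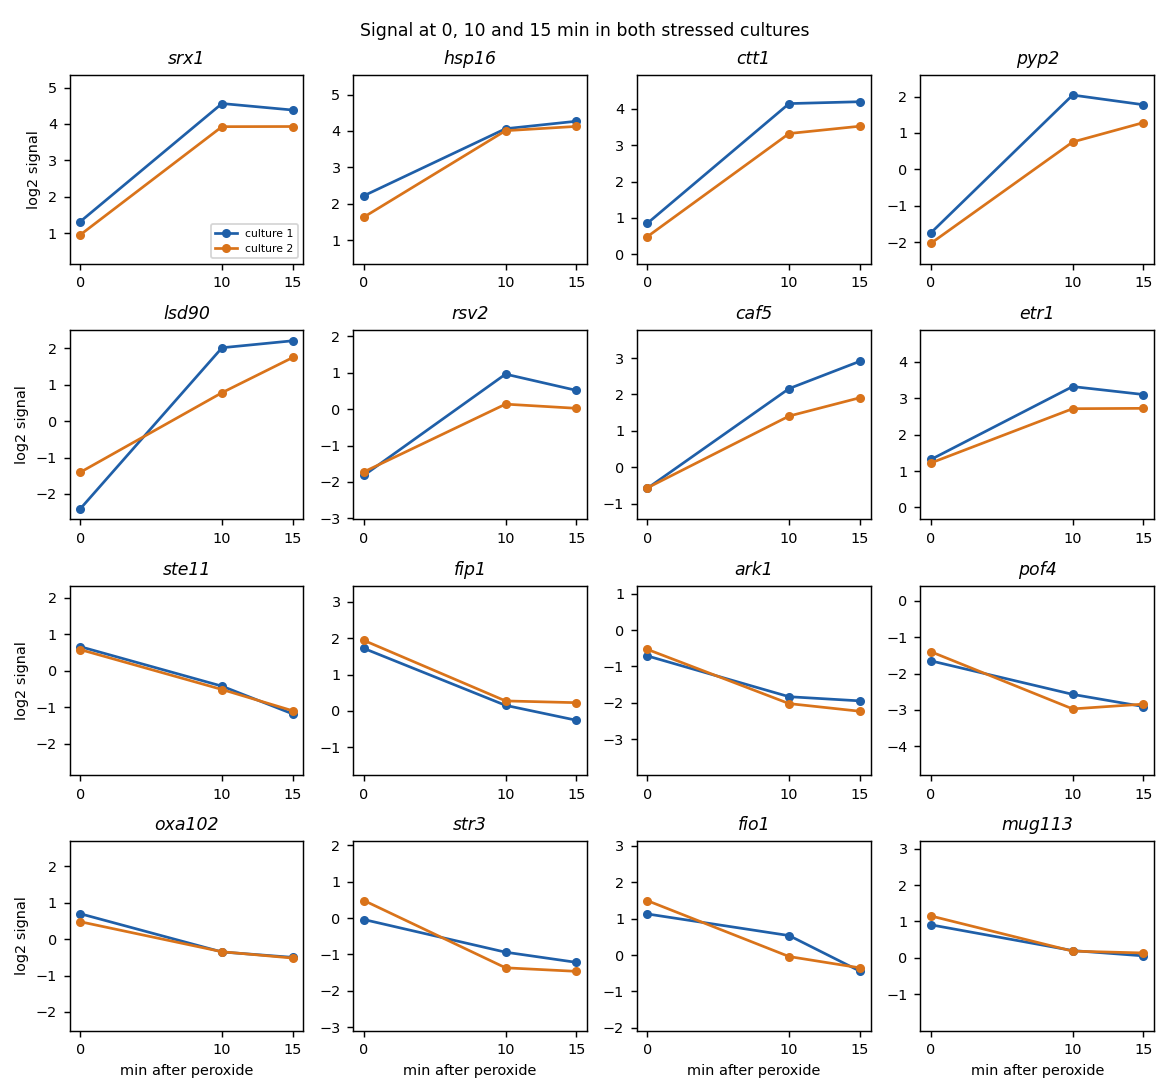
Log2 signal (vertical axes) of 16 named transcripts at 0, 10 and 15 min of 0.5 mM peroxide (horizontal axes, min), 1 panel per gene and 1 point per array, with the 3 arrays of each culture joined by a line. The genes were chosen on these same arrays by lowest unadjusted p and the same direction in all 4 stressed arrays. In each panel all 4 stressed points lie on the same side of both 0 min points, as with srx1, ctt1 and hsp16 above and ste11, fip1 and ark1 below. That separation was largely set by the choice.

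The core stress genes of the Sty1 and Atf1 route had the highest median and the most calls of the 28 lists, and they were listed with earlier results of these data known. Of the 36 transcripts, 17 rose and 0 fell, beside 2.8% and 1.07% of all probe sets. The median log2 change was 0.80, which was 1.09 in culture 1 and 0.80 in culture 2. For 22 (61.1%) all 4 stressed arrays lay above both starting arrays, beside 9.81% of all probe sets. On culture means 15 of the 17 passed, without gpx1 and zym1. The list shares members with other lists, ctt1 and gpx1 among them. The signal of pyp2, the tyrosine phosphatase gene whose product switches Sty1 off, was 0.299, 4.11 and 3.42 in culture 1 and 0.244, 1.68 and 2.43 in culture 2. All stressed values were several times the start, with culture 1 the higher. The pooled pyp2 change was 3.35 ± 0.23 (SE, paired fit, adjusted p = 0.0044). For srk1, a kinase that Sty1 activates, the signal was 0.339, 1.99 and 1.70 in culture 1 and 0.332, 0.902 and 0.937 in culture 2. The srk1 transcript rose by 1.95 ± 0.24 (adjusted p = 0.0167), again with the larger change in culture 1, 2.44 against 1.47.

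The greatest pooled change among transcripts with a known symbol was that of lsd90, with signals of 0.189, 4.05 and 4.63 in culture 1 and 0.378, 1.72 and 3.37 in culture 2. Its change differed strongly between the cultures, 4.52 and 2.67, partly through the starting value, and the pooled 3.59 had an SE of 0.42 (paired fit, adjusted p = 0.0158). The zinc finger factor gene rsv2 had signals of 0.283, 1.95 and 1.43, and 0.303, 1.10 and 1.02, and rose by 2.18 ± 0.21 (adjusted p = 0.00907). It stood higher at 10 than at 15 min in both cultures. Also risen were ish1, which encodes a stress-responsive protein of the nuclear envelope, by 2.6, and etr1, a mitochondrial enoyl reductase gene of fatty acid synthesis, by 1.69.

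Genes of storage and osmolyte metabolism belonged in part to the same set. Of 12 transcripts of trehalose, glycerol and hexitol metabolism, 3 rose and 0 fell, beside 2.8% and 1.07% of all probe sets. The median was 0.39, and the 3 risen ones are also core stress genes. They were gut2, the mitochondrial glycerol-3-phosphate dehydrogenase gene, at 2.58 ± 0.26 (SE, paired fit, adjusted p = 0.0119), tms1, a hexitol dehydrogenase gene, at 1.36, and ntp1, the trehalase gene, at 1.20. The signal of gut2 was 1.46, 14.1 and 7.79 in culture 1 and 0.784, 3.51 and 4.28 in culture 2, so culture 1 peaked at 10 min and culture 2 did not. The genes of trehalose synthesis, tps1 and tpp1, had changes of 0.81 and 0.39 and were not called, and gpd1, the first enzyme of glycerol synthesis, had 0.24.

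Of 18 transcripts of hexose transport and sucrose use, 2 rose, beside 2.8% of all probe sets, with a median of 0.31. The hexose transporter gene ght2 rose by 0.97 ± 0.16 (SE, paired fit, adjusted p = 0.0404) from an already moderate signal of 4.50 in culture 1 and 4.53 in culture 2, and lost its call on culture means (adjusted p = 0.0668). The invertase gene inv1, which serves sucrose breakdown, rose by 1.68 from a signal near the bottom of the range. Its values were 0.0711, 0.112 and 0.339 in culture 1 and 0.102, 0.211 and 0.692 in culture 2. Both cultures were higher at 15 than at 10 min.

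Among 21 heat shock and chaperone transcripts, 2 rose and 0 fell, beside 2.8% and 1.07% of all probe sets. The median of 0.07 was near that of all probe sets. The small heat shock protein gene hsp16 had signals of 4.65, 16.7 and 19.2 in culture 1 and 3.10, 16.1 and 17.4 in culture 2. The stressed values of both cultures were nearly alike, and the change was 2.19 ± 0.16 (SE, paired fit, adjusted p = 0.0044). The Hsp70 gene ssa1 rose by 2.30 ± 0.23 (adjusted p = 0.011), from 1.66 to 11.9 and 9.87 in culture 1 and from 1.72 to 5.90 and 6.86 in culture 2. Close relatives of ssa1 may share its probes, so that value is uncertain. Untreated culture 1 also moved for these chaperone genes: the hsp16 log2 change by 60 min was 2.70 there and -0.53 in untreated culture 2, and that of ssa1 was 2.95 and -1.51. The part of culture handling in their rise was not tested.

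The messengers of the signalling route itself had smaller values. Of 24 transcripts of the Sty1 kinase cascade and its phosphatases, 2 rose and 1 fell, beside 2.8% and 1.07% of all probe sets. The median was 0.02. The risen ones were pyp2 and srk1, and the fallen one was pmp1, a phosphatase gene of another kinase of this family, Pmk1, at -0.88 ± 0.15 (SE, paired fit, adjusted p = 0.0389), a call lost on culture means (adjusted p = 0.0703). The sty1 transcript had a change of -0.04, and those of the kinases upstream, wis1, wis4 and win1, had -0.24, 0.00 and -0.24. Among 24 stress transcription factor transcripts, rsv2 alone was called, beside 2.8% of all probe sets risen and 1.07% fallen. The atf1 transcript stood at 1.97, 4.34 and 3.94 in culture 1 and 1.51, 1.83 and 2.27 in culture 2, so the changes were 1.07 and 0.43, and at 0.75 pooled it was not called (adjusted p = 0.11 in the paired fit). A like split was seen for pcr1, with 1.14 and 0.46, whereas pap1 had 0.48 and 0.55 and all 4 of its stressed values above both starts (adjusted p = 0.0923 in the paired fit).

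**Figure D2:**
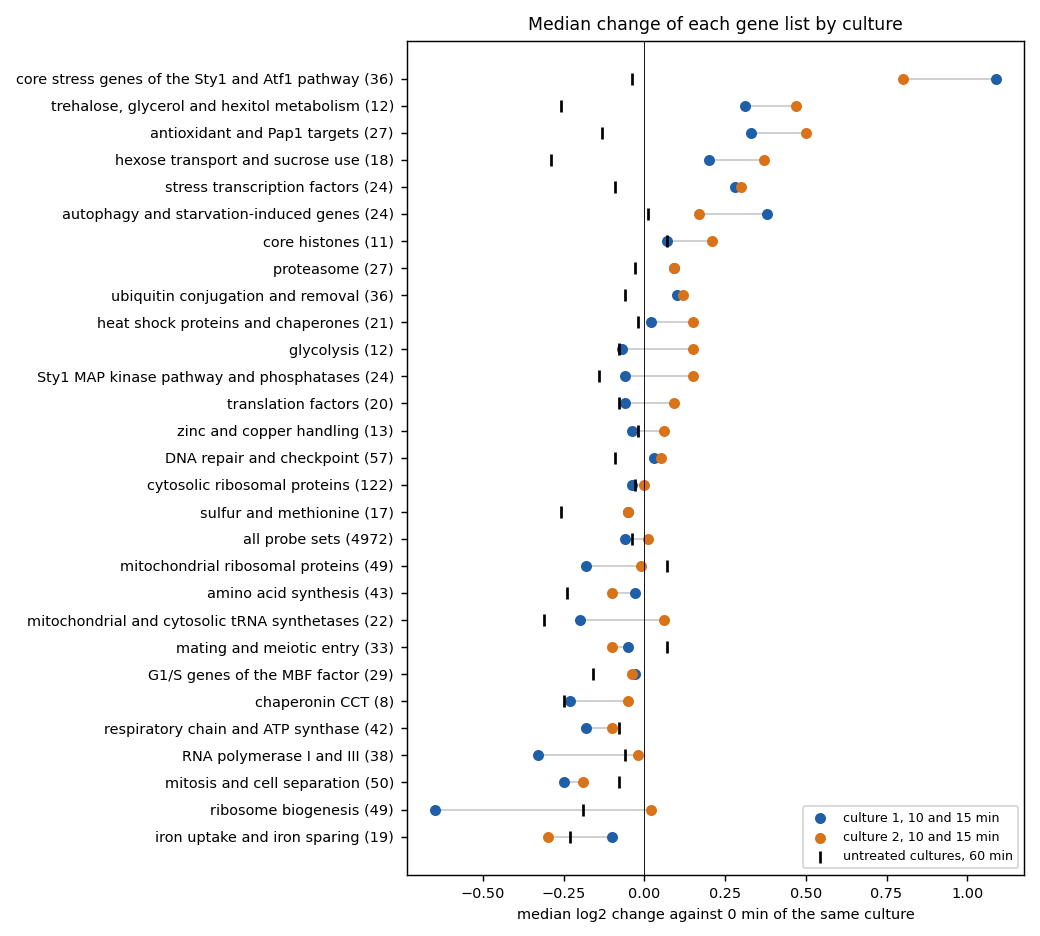
Median log2 change (horizontal axis) of each gene list (vertical axis) for the mean of 10 and 15 min against 0 min, with 1 point per stressed culture. The 1 tick per list is the median at 60 min of the change averaged over the 2 untreated cultures. The core stress list lies farthest to the right in both cultures (1.09 and 0.80), and the ribosome biogenesis list shows the wide gap between cultures (-0.65 and 0.02).

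The remaining risen transcripts named here were chosen after their values were seen. The catalytic subunit gene of protein kinase A, pka1, rose by 1.22 ± 0.15 (SE, paired fit, adjusted p = 0.0182), with signals of 1.08, 2.63 and 3.22 in culture 1 and 0.959, 1.67 and 2.21 in culture 2. The calls of git11, a G protein subunit gene at 0.68, and of git3, a glucose receptor gene at -0.84, were lost on culture means (adjusted p = 0.0959 and 0.0684). The vacuolar protease gene isp6 rose by 1.01, and pbi2, which encodes an inhibitor of such a protease, by 1.11. The list of 24 autophagy and starvation genes held 3 that rose and 1 that fell, beside 2.8% and 1.07% of all probe sets. The median was 0.23. On culture means 2 of the risen ones passed, isp6 and fus1, the latter counted again with the mating transcripts below, and the fallen one did not. The third risen one, atg8, a ubiquitin-like protein gene of autophagosomes, had 0.88 (adjusted p = 0.0684 on culture means). The metallothionein gene zym1 rose by 1.14 (adjusted p = 0.0488) with unequal cultures, 1.47 and 0.81, and lost its call on culture means (adjusted p = 0.0634). Of 91 probe sets whose symbol begins with mug, genes named for their rise in meiosis, 8 rose (8.79% against 2.8% of all probe sets) and 1 fell, their median was 0.06, and on culture means 4 of the 8 passed and the fallen one, mug113, did not (adjusted p = 0.0604).

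Of 33 mating and meiotic entry transcripts, 2 rose and 3 fell, beside 2.8% and 1.07% of all probe sets, with a median of -0.08, and the rest were not called. The transcription factor gene ste11, which opens the mating programme, had signals of 1.58, 0.746 and 0.439 in culture 1 and 1.5, 0.700 and 0.466 in culture 2. The 2 cultures followed nearly the same downward course. The ste11 change was -1.43 ± 0.13 (SE, paired fit, adjusted p = 0.00906), while in the untreated cultures its signal was higher at 60 min by 1.22 and 1.77. Also fallen were mei2, which encodes an RNA-binding protein needed for meiosis, by 1.24, and mfm2, a mating pheromone gene with near-identical relatives whose probes may be shared, by 1.25. The risen ones were fus1, a formin gene of cell fusion, at 1.09, and rep1, a factor gene of the transition into S phase, at 0.81, both from signals under 0.2. The rep1 call was lost on culture means (adjusted p = 0.0668).

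Iron uptake gave a further 3 fallen transcripts of 19, with 0 risen, beside 1.07% and 2.8% of all probe sets. The list median was -0.33 pooled, -0.1 in culture 1 and -0.3 in culture 2. The iron permease gene fip1 had signals of 3.29, 1.11 and 0.838 in culture 1 and 3.83, 1.21 and 1.17 in culture 2, a change of -1.73 ± 0.14 (SE, paired fit, adjusted p = 0.0072). Its ferroxidase partner fio1 was at 2.19, 1.45 and 0.735, and at 2.81, 0.971 and 0.783, a change of -1.39 (adjusted p = 0.0313). The haem transporter gene str3 had -1.47 (adjusted p = 0.029), and it also stands by name in the list of sulfur genes. The str3 signal was among the lowest 25%, and with log2(signal + 0.1) its change was -1.28. At 0 min the stressed cultures lay above the untreated ones for all 3, by 2.72 for fip1, 2.37 for fio1 and 3.41 for str3 on the log2 scale. In the untreated cultures fip1 had changes at 60 min of -1.82 and -0.71, fio1 of -1.34 and -1.52, and str3 of -0.83 and -0.89. The part of this starting difference in the fall was not tested. With all 4 arrays at 0 min, untreated ones included, as the start and no block, none of the 3 was called: fip1 stood at -0.37 (adjusted p = 0.784), fio1 at -0.20 (adjusted p = 0.874) and str3 at 0.24 (adjusted p = 0.901). Not all of the list moved this way. The ferrichrome synthesis genes sib1 and sib2 had values of 0.42 and 0.71, and frp1, the ferric reductase gene, was at -0.26 in culture 1 and -1.70 in culture 2.

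Among 50 transcripts of mitosis and cell separation, 2 fell and 0 rose, beside 1.07% and 2.8% of all probe sets. The median was -0.23, and 16 of the 50 had all 4 stressed arrays below both starts, beside 12.3% of all probe sets. The fallen ones were ark1, the Aurora kinase gene, and etd1, a cytokinesis gene. The ark1 signal was 0.611, 0.281 and 0.260 in culture 1 and 0.692, 0.246 and 0.213 in culture 2, a change of -1.39 ± 0.15 (SE, paired fit, adjusted p = 0.0137). Both cultures were below their starting value at both times, but ark1 was among the lowest 25% of signals, and the floor of the scale is unknown. With log2(signal + 0.1) the ark1 change was -1.1 (adjusted p = 0.0127 in the paired fit). The anaphase activator gene slp1 was not called, at -1.33 in culture 1 and -0.30 in culture 2. Outside the lists, oxa102, which encodes an insertase of the inner mitochondrial membrane, fell by 1.02 ± 0.13 (adjusted p = 0.0191). The elongin-like gene pof4 fell by 1.30 (adjusted p = 0.0198). Its signal was also among the lowest 25%, and with log2(signal + 0.1) its change was -0.89. Both laf1 and laf2, genes of proteins associated with a histone deacetylase complex, fell, by 1.18 and 0.83, and were chosen after their values were seen. The laf2 call was lost on culture means (adjusted p = 0.0703). With all 4 arrays at 0 min as the start pof4 stood at -0.88 and was not called (adjusted p = 0.156).

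The transcripts of ribosome production showed the widest split between cultures of the 28 lists. Of 49 ribosome biogenesis transcripts, 2 fell and 0 rose, beside 1.07% and 2.8% of all probe sets. The list median was -0.65 in culture 1 and 0.02 in culture 2. The called members were the helicase gene dbp8 at -0.80 and the rRNA methyltransferase gene rrp8 at -0.78, both with negative values in each culture, and neither passed on culture means (adjusted p = 0.0722 and 0.0703). Of the 38 transcripts of RNA polymerases I and III and their factors, brf1, a subunit of an initiation factor for RNA polymerase III, fell by 0.87 (adjusted p = 0.0467 in the paired fit), a call lost on culture means (adjusted p = 0.0714). It was the only call of the 38, beside 1.07% of all probe sets fallen, and the list medians were -0.33 and -0.02. The helicase gene dbp2 had signals of 8.08, 4.32 and 3.25 in culture 1 and 7.92, 8.64 and 9.0 in culture 2. It was thus below its start in culture 1 and above it in culture 2, while at 60 min both had low values, with changes of -3.03 and -2.36. The helicase gene dbp3 had changes of -1.61 and -0.09, the helicase gene has1 of -0.95 and 0.32, and sda1 and pno1, genes of ribosome assembly, of -1.24 and 0.04 and of -1.10 and 0.10. The 122 cytosolic ribosomal protein transcripts had a median of -0.02 with 0 called, and each of their changes lay between -0.28 and 0.08.

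The opposite split, with low values in culture 2, was found for another set of transcripts with a signal above the array median at 0 min. The gene rer1, which encodes a receptor that returns membrane proteins from the Golgi, had signals of 4.69, 4.34 and 4.29 in culture 1 and 4.43, 1.08 and 1.37 in culture 2. For igo1, an endosulfine gene of the nutrient response, they were 8.29, 9.04 and 8.69, and 5.77, 2.72 and 2.31. In each case culture 1 stayed near its start and culture 2 was lower at both times. The diacylglycerol acyltransferase gene dga1 had changes of 0.36 and -0.80, and ins1, an Insig family gene of sterol control, had 0.50 and -0.76. The copper transporter gene ctr4 went the other way, with changes of -0.80 and 0.80, and its start differed too, at 6.73 in culture 1 and 3.10 in culture 2. With 1 flask per value, these differences between cultures had no test.

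**Figure D3:**
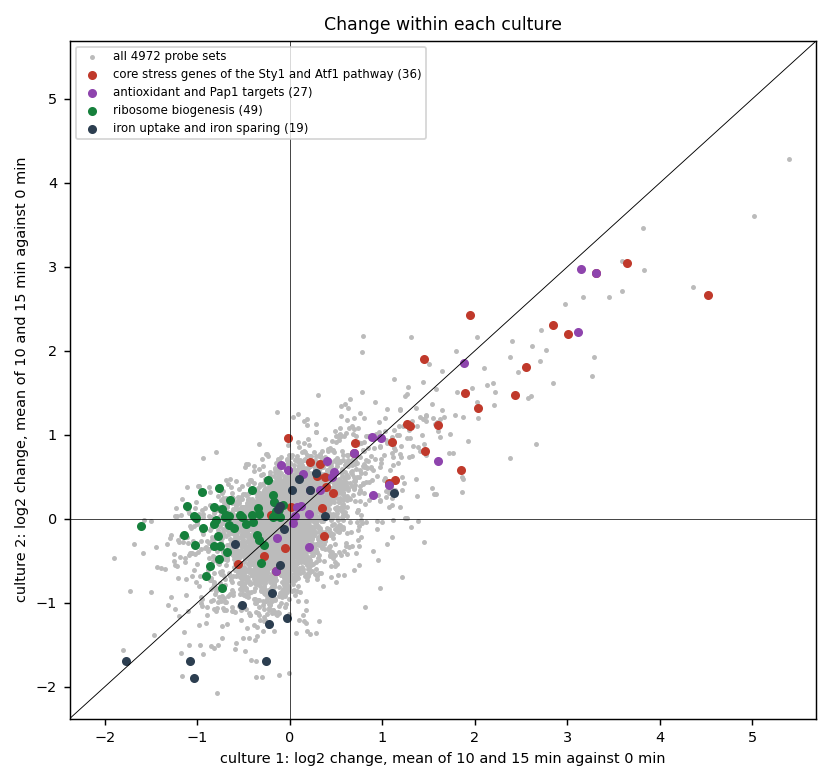
Log2 change for the mean of 10 and 15 min against 0 min in culture 1 (horizontal axis) and culture 2 (vertical axis), with 1 point per probe set and 4 gene lists in colour. Core stress and antioxidant transcripts extend up the diagonal, and ribosome biogenesis transcripts lie left of 0 in culture 1 at about 0 in culture 2 (medians -0.65 and 0.02).

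Across all 4972 probe sets the cultures shared more of what was higher than of what was lower. For the mean of 10 and 15 min, 163 probe sets were at least 2-fold higher in culture 1 and 124 in culture 2, with 89 in both, which is 54.6% and 71.8% of each set. At least 2-fold lower were 75 and 110, with 13 in both, or 17.3% and 11.8%. At 10 min alone, 64 were shared upward, of 146 (2.94%) and 98 (1.97%), and 9 downward, of 55 (1.11%) and 105 (2.11%). At 15 min alone 116 were shared upward, of 213 (4.28%) and 167 (3.36%), and 30 downward, of 148 (2.98%) and 136 (2.74%). No probe set at 10 min, and 2 at 15 min, were 2-fold higher in culture 1 and 2-fold lower in culture 2. The changes of the cultures correlated with r = 0.63 across probe sets, which are not independent replicates.

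Taken singly, 10 min gave 0 calls without the block (237 probe sets at an unadjusted p under 0.05) and 58 with it, 50 risen (1.01%) and 8 fallen (0.161%). At 15 min there were 0 calls without the block (502 unadjusted) and 165 with it, 123 risen (2.47%) and 42 fallen (0.845%). The comparisons share both 0 min arrays and 1 estimate of the spread. Of the pooled calls, 39 were made at neither time alone. A direct comparison of 15 with 10 min called 0 probe sets by limma in either fit, with 37 at an unadjusted p under 0.05 without the block and 145 with it. Differences between these times for single genes, such as caf5 or rsv2 above, are therefore values without a call.

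The response at 10 and 15 min was next set between its neighbours in time. Against 5 min, limma called 0 probe sets without the block (156 at an unadjusted p under 0.05) and 0 with it (422). At 5 min the median change from 0 min was 0.74 over the 139 risen and -0.53 over the 53 fallen probe sets, from the same 0 min arrays. The 5 min values of srx1 were changes of 3.11 (culture 1) and 2.94 (culture 2), already those of 10 and 15 min, whereas caf5 had 3.04 in culture 1 and 0.56 in culture 2. At 60 min the risen set had a median change of 2.11, with 118 of 139 further from the start. The fallen set had -1.41, with 39 of 53 further. Over all probe sets the median changes at 60 min were -0.07 in culture 1 and -0.11 in culture 2. These 60 min changes were taken from the same 0 min arrays on which the sets were chosen. The part of that shared start was not tested.

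A comparison of 60 min with the mean of 10 and 15 min called 123 probe sets without the block, 62 higher (1.25%) and 61 lower (1.23%), and 886 with it, 415 higher (8.35%) and 471 lower (9.47%). Leaving out the 15 min array of culture 1 or of culture 2 gave 0 calls, with lowest adjusted p of 0.0519 and 0.0525 and 1117 and 819 probe sets at an unadjusted p under 0.05 beside 1146 with all arrays. Leaving out 1 array at 10 or 60 min gave 17 to 78 calls, and each such fit also has 1 residual degree of freedom fewer. Higher at 60 min were inv1, by 3.93 ± 0.44 (log2 difference ± SE, limma without the block, adjusted p = 0.0171), and tms1, by 3.23 (adjusted p = 0.00755). The rise of inv1 noted above was thus small beside its change at 60 min, 5.36 in culture 1 and 5.85 in culture 2. Lower at 60 min were eng1, a glucanase gene of cell separation, at -2.74 (adjusted p = 0.00755), and adg1, another gene expressed at cell separation, at -3.33 (adjusted p = 0.0426). At 10 and 15 min eng1 stood at -0.42 and adg1 at -0.10 against the start, neither of them called. Of the 139 risen probe sets, 19 were called in this comparison without the block, and of the 53 fallen 1. For ctt1, srx1 and hsp16 the difference between 60 min and 10 to 15 min was 0.23, 0.27 and 0.38, none of it called.

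**Figure D4:**
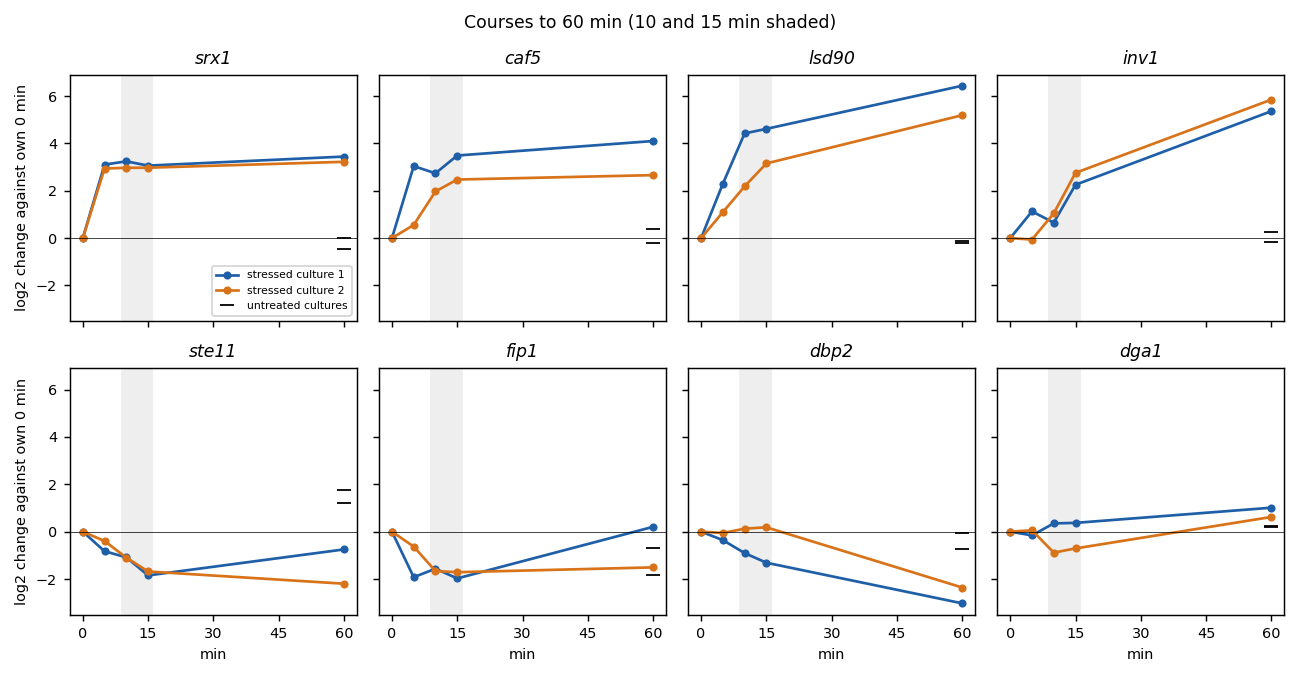
Log2 change from 0 min (vertical axes) against time from 0 to 60 min (horizontal axes, min) for srx1, caf5, lsd90, inv1, ste11, fip1, dbp2 and dga1 in stressed cultures 1 and 2, with 10 to 15 min shaded and dashes at 60 min for the untreated cultures. The srx1 curves are flat from 5 min on, inv1 climbs to 5.36 and 5.85 at 60 min, and dbp2 is lower in culture 1 before culture 2.

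Which of the 192 calls were kept whichever array was left out was read from 6 paired fits, each without 1 array. Each of these fits also has 1 residual degree of freedom fewer, so a lost call need not have rested on 1 array. In all 6, 41 probe sets were called, 39 risen and 2 fallen. Of these, 15 risen ones carry 1 symbol: the antioxidant genes srx1, ctt1, caf5 and gst2, the stress genes pyp2, lsd90, rsv2, hsp16, ish1, etr1, gut2 and inv1, and ssa1, tcb2 and mug143. The fallen ones were ste11 and fip1. In the paired fit of all stressed arrays from 0 to 15 min, fip1 and caf5 missed the threshold (adjusted p = 0.0563 and 0.0581). In that from 0 to 60 min without 30 min, fip1 and ste11 missed it (adjusted p = 0.16 and 0.0997) and caf5 passed (adjusted p = 0.0265). With all 4 arrays at 0 min as the start fip1 was not called, as given above, and ste11 had -1.6 (adjusted p = 0.0018). The tricalbin gene tcb2, a lipid transfer protein of membrane contact sites in budding yeast, rose by 1.86 ± 0.17 (SE, paired fit, adjusted p = 0.00906), with signals of 0.325, 1.23 and 1.65 in culture 1 and 0.212, 0.523 and 0.790 in culture 2. For mug143 the rise was 1.91 ± 0.22 (adjusted p = 0.0156).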

How the data were processed

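For each probe set, the deposited value is a signal on a linear scale; background correction, summarising and scaling are not given in the sources used here. Total RNA had been biotin-labelled for single-colour Affymetrix arrays, per the labels' protocols. Signals were log2-transformed with no pseudocount. limma 3.58.1 in R 4.3.3 (lmFit, eBayes) fitted the 6 stressed arrays at 0, 10 and 15 min with 1 mean per time (3 residual and 2.84 prior degrees of freedom), and the pooled change is the mean of 10 and 15 min less 0 min. Comparisons with 5 and 60 min had their own fits of 8 arrays. P-values were adjusted by Benjamini-Hochberg over 4972 probe sets, two-sided, with a threshold of 0.05. A change within 1 culture has no replicate and no test, and 2 cultures limit the precision of every value.

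Each culture number marks 1 batch culture followed in time, per the labels' protocols, so the numbers pair arrays. Differences between cultures correlated with r of 0.59 for 0 and 10 min, 0.46 for 0 and 15 min and 0.69 for 10 and 15 min. Culture as a block gave the paired fit (2 residual degrees of freedom).

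Platform annotation gave 1 symbol for 2903 probe sets, several for 16 and none here for 2053. RefSeq (assembly ASM294v3) matched 2900 and updated 110 symbols. The 28 gene lists, the members and the rules were chosen with earlier results of these data known. The rule for named genes took called probe sets by size of change. As no pooled call was made without the block, it passed to the 8 per direction with the lowest unadjusted p and the same direction in all 4 arrays. It added up to 3 uncalled members per list, all members of the antioxidant, core stress and Sty1 lists, up to 5 per direction of the 60 min comparison, and the 6 per direction whose cultures differed most. List members called in the paired fit, and others so marked, were chosen after their values were seen. The alternatives were other normalizations, filters, array sets and estimates of spread, and each array left out in turn.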

Additional observations from a re-analysis of the deposited data

Results flagged for a closer look

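The change from 10 and 15 min to 60 min differed from 0 in limma's fit without the block for 123 probe sets. Among those with 1 symbol, the 5 largest rises were those of inv1 at 3.93 on the log2 scale, eno102, an enolase gene, at 3.5, tms1 at 3.23, mel1, an alpha-galactosidase gene, at 2.67 and frp2, a ferric reductase gene, at 2.65. The 5 largest falls were those of adg1 at -3.33, eng1 at -2.74, but1 at -2.36, ppk1, a protein kinase gene, at -2.08 and put4, a proline permease gene, at -1.84. All 10 were higher or lower in both cultures. At 10 and 15 min against 0 min, eno102 had log2 changes of 1.85 and 0.58 in cultures 1 and 2 and mel1 of 1.44 and 1.62, neither called in the paired fit, whereas frp2, but1, ppk1 and put4 had pooled values from -0.26 to 0.48. The 60 min values of frp2 start from signals near 0.13, where the floor of the scale is unknown. No group holds 4 arrays, so single arrays far from their group could not be looked for.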

How the results depend on the processing

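The pooled comparison called 0 probe sets without a block. It called 192 with the replicate block, 136 with a mean per culture first and the block, 90 with all 4 arrays at 0 min as the start, 23 with median centring, 21 with the stressed arrays from 0 to 60 min without 30 min, 20 without the lowest 25% of signals and 18 with the stressed arrays from 0 to 15 min. It called 18 with robust and trended eBayes, 16 with quantile normalization, 6 with log2(signal + 0.1), 4 with probe sets of 1 symbol, 1 with all 32 arrays and the block, 0 with all 32 arrays, and 0 to 16 with 1 array left out. For 10 min alone the 0 became 58 with the replicate block, 20 with all 4 starts, 12 and 4 with the stressed arrays to 60 and to 15 min, and 0 to 7 with 1 array left out. For 15 min alone it became 165, 56, 16 and 12 in the same order, 9 without the lowest signals, 7 with centring, 2 with all 32 arrays and the block, and 0 to 1 with 1 array left out. The comparison of 15 with 10 min and that of the mean of 10 and 15 min with 5 min gave 0 under every alternative run. The 123 calls of 60 min became 886 with the replicate block, 207 with log2(signal + 0.1), 199 with quantile normalization, 191 without the lowest signals, 3 with all 32 arrays and 0 to 78 with 1 array left out. The 192 paired calls became 333 with robust and trended eBayes, 107 and 104 with the stressed arrays to 60 and to 15 min, 81 with probe sets of 1 symbol, 140 with quantile normalization, and 61 to 211 with 1 array left out, 61 without 10 min of culture 1. With all 4 starts and no block str3 turned to 0.24, and fip1, fio1 and pof4 shrank to -0.37, -0.20 and -0.88, none of them called. The causes of these shifts were not tested. The alternatives to the paired fit were chosen after seeing the data. Neither normalization shifted the median over all probe sets by as much as 0.1. The sequence motifs planned for promoters were not run.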

Other observations

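Other lists are given by their counts and medians. Of 36 transcripts of ubiquitin conjugation and removal, ubp11, a deubiquitinase gene, rose by 0.70 in the paired fit (beside 2.8% of all probe sets) and lost its call on culture means (adjusted p = 0.0921). In the same list 12 (33.3%) had all 4 stressed arrays above both starts, beside 9.81% of all probe sets. The 27 proteasome transcripts had a median log2 change of 0.09 with 0 called, and the 57 of DNA repair and checkpoints a median of 0.00 with 0 called. The base excision gene mag2 had the highest value there, 1.09, with 1.86 in culture 1 and 0.32 in culture 2. The 42 transcripts of the respiratory chain and ATP synthase had a median log2 change of -0.17, with 20 (47.6%) lower in all 4 arrays than in their own 0 min array, beside 25.1% of all probe sets, and the 12 glycolysis transcripts had one of 0.06.

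Single calls outside the lists, chosen after their values were seen, touched several other functions. Of the ergothioneine synthesis gene egt1 the rise was 0.85 in each culture, and the changes at 60 min were 3.49 and 2.27. On culture means the egt1 call was lost (adjusted p = 0.0604). The gene aif1, related to the apoptosis-inducing factor of animals, rose by 1.25, with 1.20 and 1.31 in the cultures. Among the fallen were cnp3, a centromere protein gene, by 1.16, erg31, a sterol desaturase gene, by 1.08, and rho2, a small GTPase gene of wall growth, by 0.96, and the latter 2 lost their calls on culture means (adjusted p = 0.0698 and 0.0765). Of the 139 risen probe sets 52 carry 1 symbol, beside 2903 of all 4972 probe sets. The other risen probe sets had several symbols or none here and are not described by name.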
